A study of Mus musculus with 11 samples.

Results

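The Ifit genes encode interferon-induced proteins with tetratricopeptide repeats. They were taken as the rows of the expression table named Ifit1, Ifit2, Ifit3 and Ifit3b. All 4 were listed among 14528 genes, and all 4 were among the 11323 genes that had a mean of at least 0.5 FPKM and were tested. FPKM is the number of sequenced fragments scaled by gene length and by library size, so levels can be compared between genes. Ifit1bl2, another gene of the same cluster, was listed but fell under that level and was not tested.

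The libraries came from B16F10, a mouse melanoma line in culture. The Cas9 control line was labelled wild type, and ΔUNG and ΔUNG_2 were 2 clones with a knockout of Ung, the gene of uracil-DNA glycosylase, which removes uracil from DNA. Each line received DMSO, the solvent, or 5 µM of AZD6738, an inhibitor of the checkpoint kinase ATR (ATRi below), for 48 h. There were 2 libraries in each of 5 groups and 1 library in the ΔUNG_2 ATRi group, 11 in all. Each knockout line is a single clone, so the knockout and the history of that clone cannot be told apart.

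As background, cells that sense foreign or displaced nucleic acid release type I interferon, which binds the receptor pair Ifnar1 and Ifnar2 and activates Jak1 and Tyk2. These kinases phosphorylate transcription factors such as Stat2, which joins Irf9 and binds interferon-stimulated response elements before the genes they switch on. Ifit genes are among the strongest of these genes in most cell types. Their proteins bind RNA: Ifit1 holds RNA whose cap lacks a methyl group that marks a cell's own mRNA, and human IFIT proteins also bind the translation initiation factor eIF3.

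The members lie side by side on the plus strand of chromosome 19, by the coordinates of the deposited table. Ifit2 spans chr19:34550694-34576419 and Ifit3 spans chr19:34583531-34588731. Ifit3b spans chr19:34607970-34613401 and Ifit1 spans chr19:34640871-34650009. The deposited lengths, which are sums of exon bases, were 3927 bases for Ifit2 (ENSMUSG00000045932), 1745 for Ifit3 (ENSMUSG00000074896), 2000 for Ifit3b (ENSMUSG00000062488) and 2656 for Ifit1 (ENSMUSG00000034459).

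The 250 bases before the RefSeq start of each gene (GRCm38.p6, plus strand) are shown because 3 members hold a motif there that the windows of Ifit2 do not. Capitals mark matches to GAAA, any 2 bases and GAAA, the core of an interferon-stimulated response element, searched on both strands. On the plus strand each match here reads as the reverse complement, TTTC, any 2 bases and TTTC. The window of Ifit1 is chr19:34640639-34640888, that of Ifit3 is chr19:34583279-34583528, that of Ifit3b is chr19:34607707-34607956 and that of Ifit2 is chr19:34550444-34550693.
Ifit1: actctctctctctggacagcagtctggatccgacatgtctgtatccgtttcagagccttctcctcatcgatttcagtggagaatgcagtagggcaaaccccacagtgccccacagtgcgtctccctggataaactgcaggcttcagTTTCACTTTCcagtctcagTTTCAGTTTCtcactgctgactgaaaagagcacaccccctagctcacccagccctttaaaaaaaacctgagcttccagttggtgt
Ifit3: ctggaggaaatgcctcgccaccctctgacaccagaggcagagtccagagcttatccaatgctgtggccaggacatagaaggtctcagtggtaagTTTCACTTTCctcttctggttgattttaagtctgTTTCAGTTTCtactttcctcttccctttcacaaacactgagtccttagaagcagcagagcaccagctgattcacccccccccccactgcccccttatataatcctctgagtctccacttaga
Ifit3b: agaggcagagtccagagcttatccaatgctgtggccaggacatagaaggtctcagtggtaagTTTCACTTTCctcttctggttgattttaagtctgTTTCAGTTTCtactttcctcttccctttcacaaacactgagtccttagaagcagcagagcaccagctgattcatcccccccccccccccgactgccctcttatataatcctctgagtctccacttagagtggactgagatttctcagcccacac
Ifit2: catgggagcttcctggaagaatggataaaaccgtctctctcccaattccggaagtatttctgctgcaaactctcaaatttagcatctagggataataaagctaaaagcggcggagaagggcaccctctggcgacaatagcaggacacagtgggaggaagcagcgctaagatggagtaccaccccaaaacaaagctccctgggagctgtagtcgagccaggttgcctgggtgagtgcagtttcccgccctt

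Ifit1, Ifit3 and Ifit3b each held 2 matches, which did not overlap and had the letters TTTCACTTTC and TTTCAGTTTC. They lay 104 to 95 and 85 to 76 bases before the start of Ifit1, 156 to 147 and 122 to 113 bases before that of Ifit3, and 188 to 179 and 154 to 145 bases before that of Ifit3b. The window of Ifit2 held 0 matches, as did the window of its other RefSeq start, chr19:34550838-34551087. Over 32851 windows of the same length before mouse genes, 978 (2.98%) held at least 1 match and 59 (0.180%) held 2 or more. The windows of Ifit3 and Ifit3b were 99.1% identical over 218 aligned bases. A match is a string of letters and not a measured binding site, and its absence covers these windows only.

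**Figure D1:**
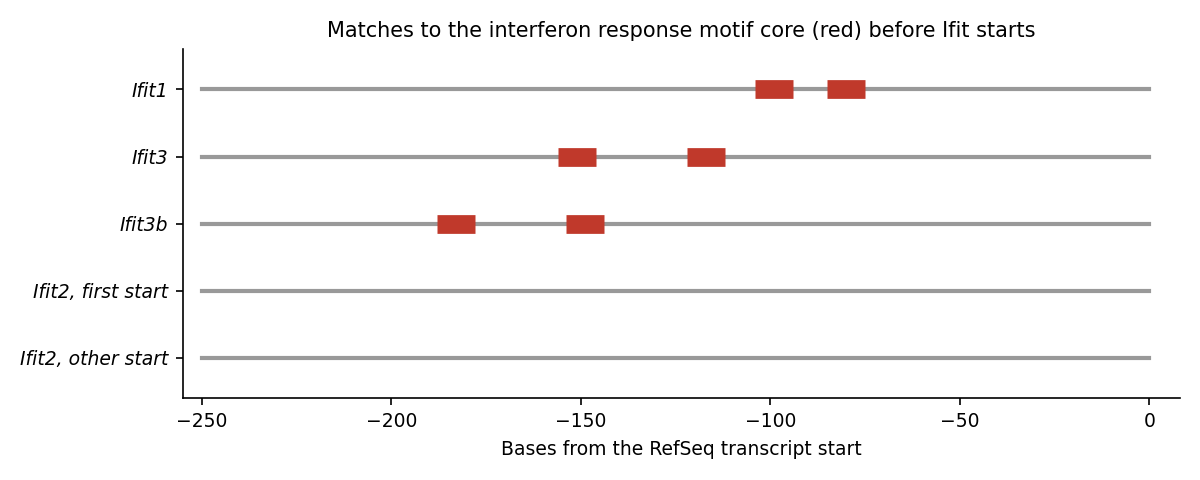
Position of matches to the interferon response motif core (red bars) in the 250 bases before RefSeq starts, with the start at 0 on the horizontal axis in bases. Ifit1, Ifit3 and Ifit3b hold 2 matches each and both windows of Ifit2 hold 0.

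Libraries held 45692790 to 74973328 clean reads. From the FPKM steps, 17014697 to 28464757 fragments per library entered the values, and both Cas9 control ATRi libraries were the deepest. A chi-square test of each replicate pair, 4.83 to 28.7 per degree of freedom, found more than counting noise, and no library was taken for a copy of another. Ung was at 2.48 to 2.86 FPKM in control DMSO, 0.774 to 1.39 in ΔUNG DMSO and 1.78 to 2.01 in ΔUNG_2 DMSO, which does not by itself show the edit. All 7 melanoma markers looked for (Mlana, Tyr, Tyrp1, Dct, Pmel, Mitf and Sox10) were listed, at a summed 7220 to 9611 FPKM. Of 4 fibroblast markers 3 were listed, with a summed level of at most 1.27 FPKM, and of 3 endothelial markers Pecam1 alone was listed, at up to 0.152 FPKM.

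Ifit1, the cap-sensing member, spanned a 23.4-fold range over the libraries. It read 20.1 and 17.1 FPKM in the DMSO libraries of the control, 6.13 and 5.78 in those of ΔUNG and 5.04 and 3.61 in those of ΔUNG_2. With ATRi the values were 84.4 and 69.5 FPKM (control), 17.8 and 16.9 (ΔUNG) and 15.8 (ΔUNG_2). Control ATRi was above every other group, the clones under DMSO were below every other group, and ΔUNG ATRi overlapped the untreated control, with ΔUNG_2 ATRi just below it. These values rest on 178 to 6384 fragments per library.

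Ifit3, known in human cells as a partner that steadies IFIT1 on RNA, read 13.4 and 11.7 FPKM in the DMSO libraries of the control, 5.84 and 5.25 in those of ΔUNG and 3.97 and 3.27 in those of ΔUNG_2. With ATRi the values were 76.7 and 63.5 FPKM (control), 15.8 and 14.7 (ΔUNG) and 13.5 (ΔUNG_2). Its highest library was 23.4 times its lowest. The treated clones lay above the untreated control, but in ΔUNG_2 only just (13.54 FPKM against 13.42 in the higher control library). Limma separated neither treated clone from the untreated control, as given below. Counts were 106 to 3808 fragments.

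Ifit3b, a mouse copy of Ifit3, was the lowest member in each library. It read 2.57 and 2.91 FPKM in the DMSO libraries of the control, 1.18 and 1.15 in those of ΔUNG and 0.792 and 0.673 in those of ΔUNG_2. With ATRi the values were 20.1 and 17.8 FPKM (control), 3.91 and 4.62 (ΔUNG) and 4.29 (ΔUNG_2). Each ATRi library was above each DMSO library of all lines, and the range was 29.8-fold. These values rest on 25 to 1142 fragments.

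Transcripts of Ifit3 and Ifit3b were 98.0% identical over 1697 aligned bases in the GENCODE annotation. Of the 150-base windows of Ifit3, 18.5% occurred letter for letter in Ifit3b, and 15.99% of those of Ifit3b occurred in Ifit3. Reads from such stretches could be split between both genes or dropped, so their separate levels are less certain than their sum. The other member pairs shared no window of 50 bases.

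Ifit2, a member needed in mice to restrain some viruses in the nervous system, behaved differently. It read 17.1 and 19.4 FPKM in the DMSO libraries of the control, 17.0 and 19.6 in those of ΔUNG and 15.5 and 16.2 in those of ΔUNG_2. With ATRi the values were 21.5 and 21.1 FPKM (control), 15.4 and 16.1 (ΔUNG) and 13.8 (ΔUNG_2). Its highest library was only 1.56 times its lowest. Control and ΔUNG overlapped under DMSO, control ATRi was above all DMSO libraries, and the treated clones were below both control groups. Counts of 1080 to 2399 fragments stood behind it.

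**Figure D2:**
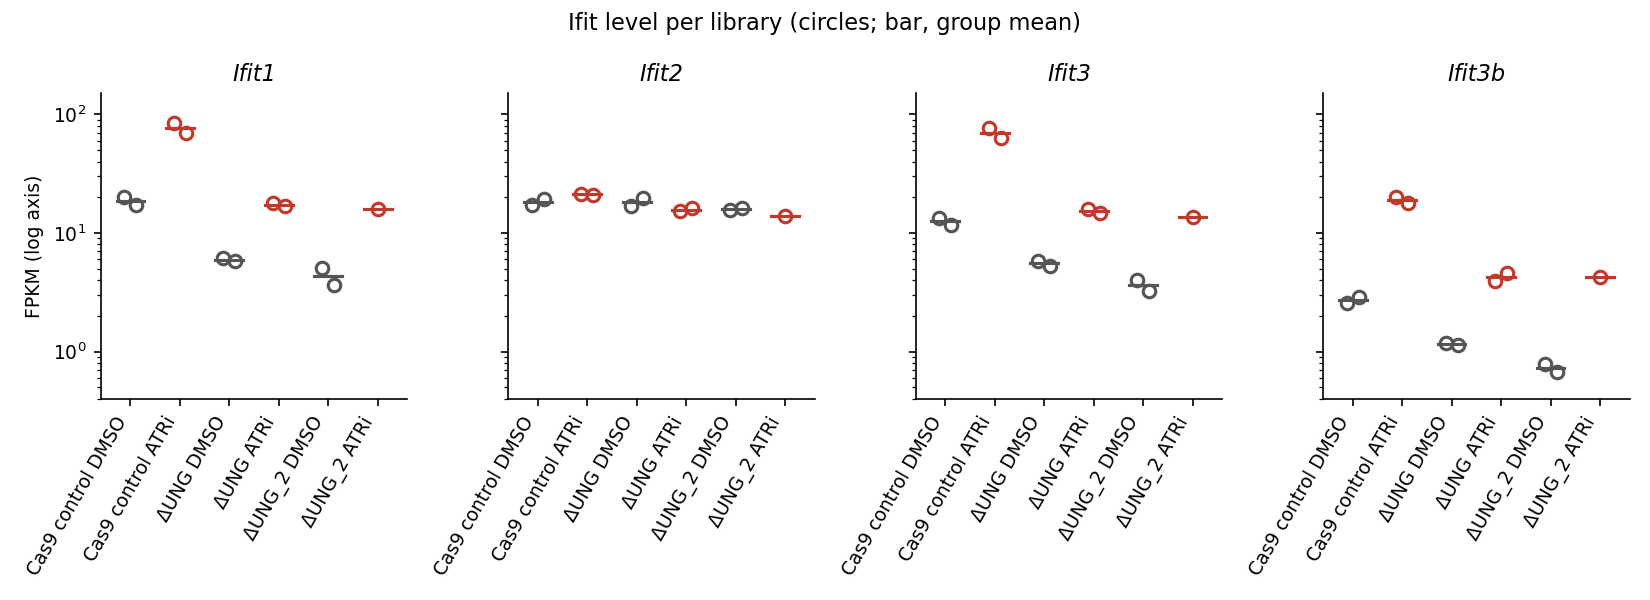
FPKM of each member on a log axis, 1 circle per library and a bar at the group mean, with DMSO in grey and ATRi in red. Ifit1, Ifit3 and Ifit3b fall in both clones under DMSO and rise with ATRi in each line, while Ifit2 stays between 13.8 and 21.5 FPKM.

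The first question of the design was whether loss of Ung goes with lower inflammatory signalling within tumour cells. Under DMSO, 3 of 4 members were lower in ΔUNG than in the control, where 3.25% of all tested genes were lower (limma on log2(FPKM + 0.5), Benjamini-Hochberg adjusted p under 0.05). Mean Ifit1 was 18.6 ± 2.09 FPKM (SD, n = 2) in the control and 5.95 ± 0.25 (SD, n = 2) in ΔUNG, or 3.13-fold lower. Its log2 difference was -1.56 ± 0.14 (SE, limma adjusted p = 0.000364). Ifit3 fell by 1.11 ± 0.12 on the same scale (limma adjusted p = 0.000784) and Ifit3b fell by 0.96 ± 0.12 (limma adjusted p = 0.00154). Ifit2 did not pass the test, with a 95% interval of its log2 difference from -0.20 to 0.20. Of 7 immune cell markers looked for, Cd68 alone was listed, at 3.33 to 4.52 FPKM in control DMSO, 2.11 to 3.04 in ΔUNG DMSO and 2.72 to 2.91 in ΔUNG_2 DMSO. Of 4 epithelial markers Cdh1 alone was listed, at 0.143 to 0.191 FPKM in control DMSO, 0.514 to 0.727 in ΔUNG DMSO and 0.424 to 0.449 in ΔUNG_2 DMSO. The Cd68 levels lay lower and the Cdh1 levels higher in both untreated clones; Cd68 did not pass the test and Cdh1 was under the level for testing. Their part in the result was not tested. In bulk RNA, fewer cells expressing a gene and less of its RNA per cell cannot be told apart.

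In ΔUNG_2 under DMSO the same 3 members were lower than in the control, against 3.73% of all genes lower. Ifit1 was 4.30-fold lower, at 4.33 ± 1.02 FPKM (SD, n = 2), with a log2 difference of -1.998 ± 0.14 (SE, limma adjusted p = 9.15e-05). Ifit3 was 3.47-fold lower (log2 difference -1.67 ± 0.12 SE) and Ifit3b 3.74-fold lower (-1.39 ± 0.12 SE). For Ifit2 the log2 difference was -0.20 ± 0.09 (SE, limma adjusted p = 0.218). Both clones were set against the same 2 control libraries, so the comparisons are not independent of each other.

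Between the clones under DMSO, ΔUNG_2 had the lower mean for all 4 members, with log2 differences of -0.56 to -0.20. By limma 0 of 4 passed the adjusted threshold, which 0.0442% of all genes passed in either direction, and limma-voom on fragments also called 0. All 4 had an unadjusted p under 0.05, with the smallest adjusted p, 0.353, for Ifit3. Under ATRi the members' log2 differences between clones ran from -0.18 to 0.01. There limma and limma-voom called 0 of 4 members, 0 had an unadjusted p under 0.05, and 0.0265% of all genes were called.

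ATRi was compared with DMSO within each line next. In the control, 3 of 4 members rose, where 16.8% of all genes rose. Ifit3b rose 6.91-fold to 18.9 ± 1.61 FPKM (SD, n = 2), a log2 change of 2.58 ± 0.12 (SE, limma adjusted p = 3.95e-06) that ranked 11 from the top of 11323 genes. Ifit3 rose 5.58-fold (log2 change 2.43 ± 0.12 SE, rank 16), to 70.1 ± 9.32 FPKM (SD, n = 2). Ifit1 rose 4.13-fold (log2 change 2.02 ± 0.14 SE, rank 36), to 77.0 ± 10.5 FPKM (SD, n = 2). Ifit2 was at 21.3 ± 0.259 FPKM against 18.3 ± 1.62 (SD, n = 2 each), with a log2 difference of 0.22 ± 0.09 that did not pass (limma adjusted p = 0.0852). Under ATRi Cd68 had 9.59 to 12.02 FPKM in the control, 11.8 to 11.9 in ΔUNG and 8.70 in ΔUNG_2, above its DMSO levels in each line. Its treated levels overlapped between the control and ΔUNG, and the ΔUNG_2 library lay below both control libraries. The fibroblast markers summed to 1.03 to 1.27 FPKM over all DMSO libraries and 0.438 to 0.750 over all ATRi libraries, and Pecam1 had 0.00873 to 0.0519 and 0.0954 to 0.152. The part of these markers in the result was not tested.

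In ΔUNG, ATRi raised the same 3 members, against 16.5% of all genes. The rises were 3.66-fold for Ifit3b, 2.92-fold for Ifit1 and 2.75-fold for Ifit3, with log2 changes of 1.51 ± 0.12, 1.47 ± 0.14 and 1.38 ± 0.12 (SE). Ifit2 had a log2 difference of -0.21 ± 0.09 (limma adjusted p = 0.0937). Without the first ΔUNG DMSO library, Ifit2 passed as lower, at -0.31 (limma adjusted p = 0.0363).

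In ΔUNG_2, with its single ATRi library assumed to vary like the other groups, 3 members rose and 18.1% of all genes did. Ifit3b was 5.86-fold higher (log2 change 1.96 ± 0.15 SE), Ifit3 3.74-fold (1.77 ± 0.15) and Ifit1 3.66-fold (1.78 ± 0.18). Ifit2 again had a negative log2 difference that did not pass, -0.19 ± 0.11 (limma adjusted p = 0.192).

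**Figure D3:**
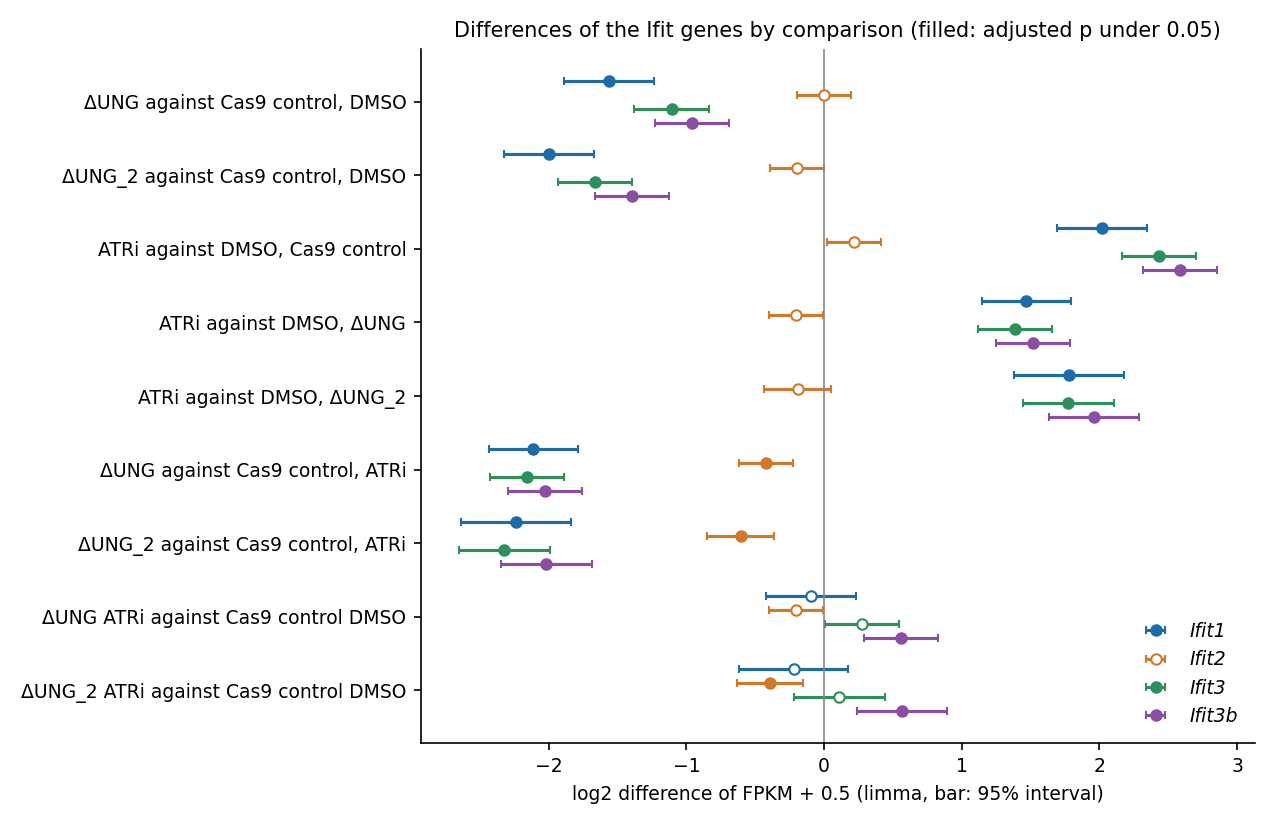
Log2 differences of FPKM + 0.5 for each member and comparison, with 95% intervals from limma on the horizontal axis and filled circles where the adjusted p was under 0.05. Ifit1, Ifit3 and Ifit3b lie far from 0 in the first 7 comparisons, and Ifit2 stays between -0.61 and 0.22.

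Whether the clones responded less to ATRi than the control did was tested as a difference of log2 changes. In ΔUNG against the control that difference was -0.55 for Ifit1, -0.42 for Ifit2, -1.05 for Ifit3 and -1.07 for Ifit3b, and limma called 0 of them. Adjusted p-values by limma were 0.301, 0.222, 0.0669 and 0.0627 in that order, and all 4 had an unadjusted p under 0.05. Only 0.0177% of all genes were called in that test. Limma-voom on the recovered fragments called 1 member, Ifit3, at -1.02 (adjusted p = 0.0454). For ΔUNG_2 the differences were -0.24, -0.41, -0.66 and -0.62, where limma and limma-voom called 0 members, 3 had an unadjusted p under 0.05, and 0.0707% of all genes were called. The 95% interval for Ifit3b in ΔUNG ran from -1.45 to -0.69, and in ΔUNG_2 from -1.05 to -0.20.

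Under ATRi, the clones and the control were furthest apart. All 4 members were lower in ΔUNG than in the control, where 3.13% of all genes were lower. The differences were 4.59-fold for Ifit3 (log2 -2.16 ± 0.12 SE), 4.44-fold for Ifit1 (-2.11 ± 0.14) and 4.43-fold for Ifit3b (-2.03 ± 0.12). All 4 were also lower in ΔUNG_2, against 2.27% of all genes, with Ifit3 5.18-fold lower (-2.32 ± 0.15), Ifit1 4.86-fold (-2.24 ± 0.18) and Ifit3b 4.41-fold (-2.02 ± 0.15).

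Of the 7 comparisons of clone with control or ATRi with DMSO, Ifit2 passed in these alone, 1.35-fold lower in ΔUNG (log2 difference -0.42 ± 0.09 SE, limma adjusted p = 0.0224) and 1.54-fold lower in ΔUNG_2 (-0.61 ± 0.11 SE, limma adjusted p = 0.0133). In ΔUNG the call failed on dropping any 1 of the 4 libraries compared, at log2 differences of -0.45 to -0.39 and adjusted p of 0.0636 to 0.0984. In ΔUNG_2 the call did not hold on dropping the first control ATRi library (-0.60, limma adjusted p = 0.0550).

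A comparison chosen after the values were seen set the treated clones against the untreated control, since their levels were close. Ifit1 had 17.4 ± 0.677 FPKM in ΔUNG ATRi (SD, n = 2) and 18.6 ± 2.09 in control DMSO, a log2 difference of -0.10 with a 95% interval from -0.42 to 0.23. In ΔUNG_2 ATRi the difference was -0.22, from -0.62 to 0.18. Ifit3 differed by 0.28 (limma adjusted p = 0.0974) and 0.11 (limma adjusted p = 0.589).

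Ifit3b was higher in the treated clones than in the untreated control, 1.56-fold in ΔUNG (log2 difference 0.56 ± 0.12 SE, limma adjusted p = 0.00515) and 1.57-fold in ΔUNG_2 (0.57 ± 0.15, limma adjusted p = 0.0132). It was the single member called in the first of these comparisons. In the other, Ifit2 was also called, as lower (-0.39 ± 0.11, limma adjusted p = 0.0174). Of all genes, 40% and 39.7% were called in either direction, so these calls are near the background of this contrast. Rescaling each library to the same FPKM sum ended both Ifit3b calls (limma adjusted p = 0.121 and 0.217). The ΔUNG_2 call of Ifit3b was also lost without the first control DMSO library (limma adjusted p = 0.0611), and that of Ifit2 without the other (limma adjusted p = 0.0905).

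The order of group means for Ifit1 was control ATRi, control DMSO, ΔUNG ATRi, ΔUNG_2 ATRi, ΔUNG DMSO and ΔUNG_2 DMSO. For Ifit3 both treated clones came before control DMSO, and for Ifit3b they did so with ΔUNG_2 first. Neighbours that limma did not separate were the treated clones from each other and the untreated clones from each other. Control DMSO was not separated from the treated clones for Ifit1 and Ifit3. For Ifit2 the order was control ATRi, both control and ΔUNG under DMSO at 18.3 FPKM, ΔUNG_2 DMSO, ΔUNG ATRi and ΔUNG_2 ATRi, the last at 13.8 FPKM.

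Whether the members shared 1 ATRi response was tested on log2 ratios between members within a library, with DMSO and ATRi exchanged within each line in all possible ways (exact permutation test, two-sided). The test covered 6 pairs. Ifit1 over Ifit2 changed by 1.82 on the log2 scale, averaged over lines, and by 1.80, 1.68 and 1.97 in the control, ΔUNG and ΔUNG_2. Ifit2 over Ifit3 changed by -1.92 and Ifit2 over Ifit3b by -2.08. Each of these 3 gave p = 0.00926, the smallest these arrangements can give, and an adjusted p of 0.0185 in this exact permutation test.

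The ratios without Ifit2 did not pass. Ifit1 over Ifit3 changed by -0.11 (exact permutation, adjusted p = 0.241), Ifit1 over Ifit3b by -0.27 (adjusted p = 0.122, exact permutation) and Ifit3 over Ifit3b by -0.16 (adjusted p = 0.122, exact permutation). Ifit1 over Ifit3 moved by -0.41, 0.08 and 0.00 in the control, ΔUNG and ΔUNG_2. Ifit1 over Ifit3b moved by -0.57, -0.05 and -0.18 in that order. With a pseudocount of 0.1 in place of 0.5, Ifit1 over Ifit3b (-0.50) and Ifit3 over Ifit3b (-0.38) passed as well (exact permutation, adjusted p = 0.0111 for both). They also passed without the first ΔUNG ATRi library, at -0.31 and -0.21 (exact permutation, adjusted p = 0.0444 for both). Without any 1 ΔUNG_2 library 0 pairs passed (adjusted p of 0.0556 or 0.111 for the pairs with Ifit2, exact permutation), and without the ΔUNG_2 ATRi library none could, since the smallest p there is 0.0556. The changes of the pairs with Ifit2 kept their direction there and were between 1.73 and 2.11 in size.

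The make-up of the summed Ifit level is given next as a description. Ifit2 made up 32.2% to 38.0% of the summed FPKM of the 4 members in control DMSO, 56.4% to 61.7% in ΔUNG DMSO and 61.3% to 68.2% in ΔUNG_2 DMSO. Under ATRi its share was 10.6% to 12.3% in the control, 29.1% to 30.7% in ΔUNG and 29.1% in ΔUNG_2. Ifit2 was thus the leading member in the untreated clones, and Ifit1 was the leading member in each treated library. The summed level was 51.2 to 53.2 FPKM in control DMSO, 30.1 to 31.8 in ΔUNG DMSO and 23.7 to 25.3 in ΔUNG_2 DMSO. It reached 172 to 203 FPKM in control ATRi, against 52.3 to 52.9 in ΔUNG ATRi and 47.5 in ΔUNG_2 ATRi.

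**Figure D4:**
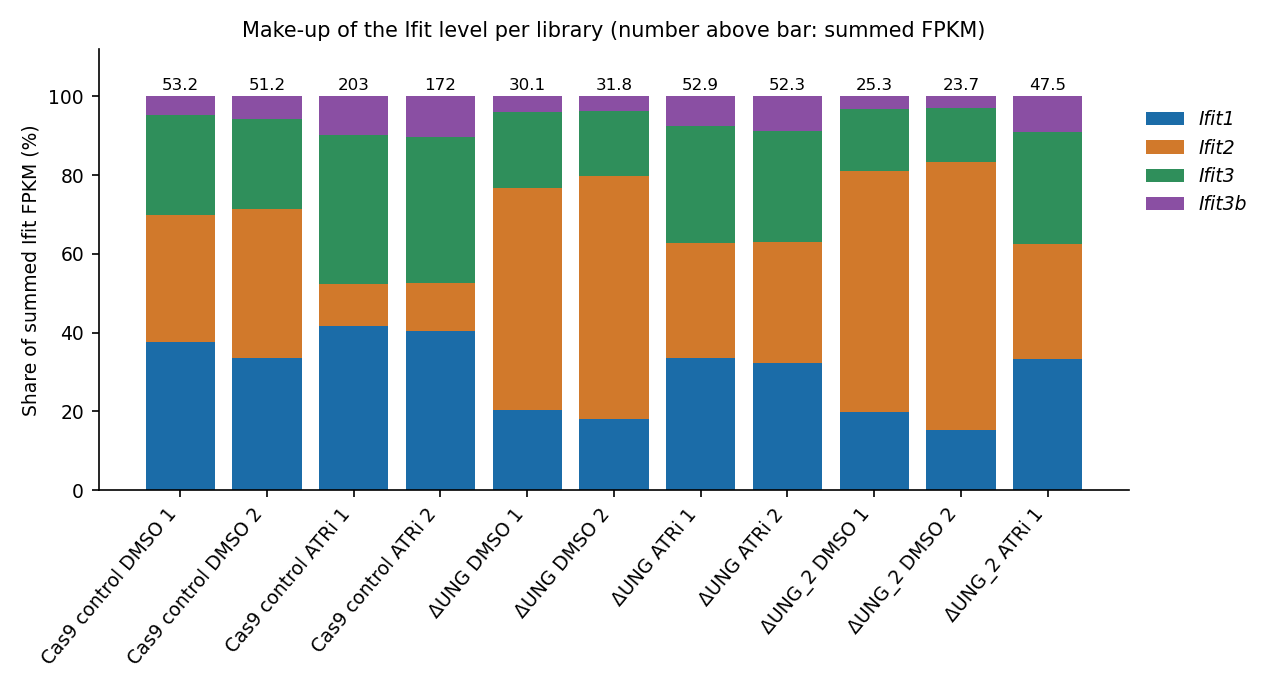
Share of the summed FPKM of the 4 members held by each member, in percent, 1 bar per library, with the summed FPKM above the bar. Ifit2 holds 56.4% to 68.2% in untreated clones and 10.6% to 12.3% in the treated control.

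Ifit1bl2, which lies on the opposite strand with its start beside that of Ifit1, had 3 to 38 fragments per library, or 0.0441 to 0.412 FPKM. It had 0.344 and 0.412 FPKM in control ATRi, its highest libraries, and 0.308 and 0.113 in control DMSO. In 1 of its RefSeq start windows it held 2 motif matches, and 145 bases of that window are also in the window of Ifit1. By their coordinates these are the same 2 matches as those of Ifit1, read on the other strand. Of the 150-base windows of Ifit1's transcript, 1.24% also occurred in Ifit1bl2.

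Within 500 kb of the cluster, 5 listed genes were no Ifit gene and 4 of these were tested. Fas, a death receptor, rose with ATRi in each line (log2 change 1.16, 1.27 and 1.31, limma adjusted p = 0.0066, 0.0038 and 0.0093) from 0.212 and 0.423 FPKM in control DMSO, and was listed at 0 in both ΔUNG DMSO libraries. The mean of Fas over all libraries was 0.534 FPKM, and its highest libraries were those of control ATRi, at 1.68 and 1.01 FPKM. Without the control ATRi libraries its mean would be under the level for testing, so its calls are not independent of that filter. Lipa, a lysosomal lipase next to Ifit2, rose with ATRi in each line by 0.58, 0.47 and 0.38. It was lower in ΔUNG_2 than in the control under DMSO by a log2 difference of -0.27 (limma adjusted p = 0.0259), and not called in ΔUNG (-0.17, limma adjusted p = 0.122). Under ATRi it was lower in both clones than in the control (-0.28 in ΔUNG, limma adjusted p = 0.0301, and -0.47 in ΔUNG_2, limma adjusted p = 0.00885). Pank1, a kinase of coenzyme A synthesis, was called in none of the 7 comparisons of groups. Kif20b, a mitotic kinesin, fell with ATRi in each line, with log2 changes of -0.85, -1.06 and -1.32. Under ATRi it too was lower in both clones than in the control (-0.32 in ΔUNG, limma adjusted p = 0.0445, and -0.51 in ΔUNG_2, limma adjusted p = 0.0189), where Ifit2 differed by -0.42 and -0.61. Ifit2 thus sits between Lipa and Ifit3, and its own change with ATRi in the control, 0.22, was below both.

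**Figure D5:**
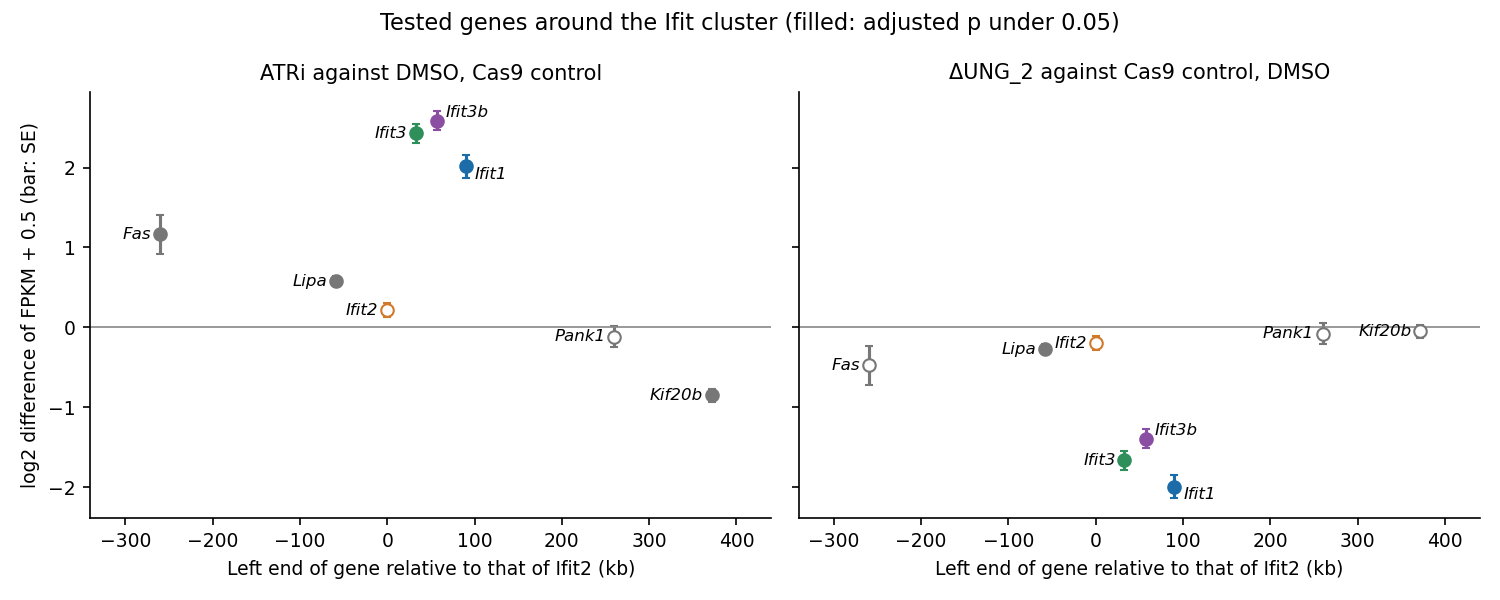
Log2 difference of FPKM + 0.5 (bars, SE) of the tested genes around the cluster against the position of the left end of each gene relative to Ifit2 in kb, for ATRi in the control and for ΔUNG_2 under DMSO; filled circles passed the limma test. On this scale Ifit3, Ifit3b and Ifit1 stand apart from Ifit2 and from the genes on either side. The scale understates differences of low genes such as Fas. Fas had 0.212 and 0.423 FPKM in control DMSO and 1.68 and 1.01 in control ATRi. In ΔUNG_2 DMSO it had 0.0475 and 0.120 FPKM. The plot therefore does not show that fold differences of Fas were smaller than those of Ifit1, Ifit3 and Ifit3b.

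The pathway that leads to the Ifit genes was followed through gene lists. Of 6 tested genes of interferon signal transduction, 0 were higher and 1 lower in ΔUNG under DMSO, and 0 were higher and 2 lower in ΔUNG_2. Of all genes, 3.25% were lower there in ΔUNG and 3.73% in ΔUNG_2. The list had medians of -0.11 and -0.16 on the log2 scale, against medians of 0.00 and -0.01 over all genes. The receptor genes Ifnar1 and Ifnar2 were not called in either clone (log2 differences of 0.15 and 0.04 in ΔUNG, 0.12 and -0.18 in ΔUNG_2), nor were the kinase genes Jak1 and Tyk2. Irf9, the DNA-binding partner of the Stat proteins, fell by 1.33 ± 0.15 (SE) in ΔUNG and fell by 1.53 ± 0.15 in ΔUNG_2, and rose by 0.91 ± 0.15 with ATRi in the control (limma adjusted p = 0.00171). Stat2 was among the 5 genes most like Ifit3 in pattern.

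Of 4 tested interferon regulatory factors, 1 was lower in each clone under DMSO, Irf7, which amplifies interferon production. Of all genes, 3.25% were lower there in ΔUNG and 3.73% in ΔUNG_2. Irf7 stood at 0.634 to 0.781 FPKM in control DMSO, 0.125 to 0.328 in ΔUNG DMSO and 0.0907 to 0.185 in ΔUNG_2 DMSO. It rose to 2.93 and 2.999 FPKM with ATRi in the control, by a log2 change of 1.52 ± 0.19 (SE). Without the control ATRi libraries the mean of Irf7 would be under the level for testing, so its call there is not independent of that filter. With ATRi 2 of these factors rose in the control and 3 in each clone, Irf1 among them in all lines, while 16.8%, 16.5% and 18.1% of all genes rose in the control, ΔUNG and ΔUNG_2.

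The list of 28 other genes that type I interferon switches on had 24 tested members. Of these 20 were lower in ΔUNG under DMSO and 23 in ΔUNG_2, where 3.25% and 3.73% of all genes were lower. In either clone 0 of the 24 were higher. Their medians were -1.16 and -1.47. Ddx58, which encodes the RNA sensor RIG-I, fell by 2.16 ± 0.15 (SE) in ΔUNG and fell by 2.40 ± 0.15 in ΔUNG_2. Rsad2, which encodes the antiviral enzyme viperin, fell by 0.91 ± 0.18 in ΔUNG and fell by 1.56 ± 0.18 in ΔUNG_2. The 3 Ifit members that fell did so by amounts inside the range of this list, -2.91 to -0.43 in ΔUNG and -3.62 to -0.50 in ΔUNG_2, and Ifit2 was outside it.

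With ATRi in the control, 23 of the 24 rose, where 16.8% of all genes rose, and 1, Herc6, was not called (0.28, limma adjusted p = 0.0880). Their median was 1.35 and their largest change 1.90, for Mx2, while Ifit1, Ifit3 and Ifit3b had changes of 2.02, 2.43 and 2.58. Isg15, placed in the list of feedback inhibitors, rose by 2.07, more than Ifit1, so this order depends on which genes the list holds. In ΔUNG 14 of the 24 rose and 1 fell, with a median of 0.49, and in ΔUNG_2 12 rose and 1 fell, with a median of 0.81. Of all genes, 16.5% rose in ΔUNG and 18.1% in ΔUNG_2. Bst2, which encodes the virus tether tetherin, rose by 1.52 ± 0.13 (SE) in the control and had a change of 0.01 ± 0.15 in ΔUNG_2. Ddx58 rose by 1.25, 1.29 and 0.98 in the 3 lines in that order.

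Against the untreated control, 17 of the 24 were lower in ΔUNG ATRi and 19 in ΔUNG_2 ATRi, 0 were higher, and the medians were -0.73 and -0.93. Over the same contrasts Ifit1 and Ifit3 were not called and Ifit3b was higher, and 20.8% and 19.9% of all genes were lower. Whether the Ifit members differ from the list in this was not tested. Rtp4, a chaperone of membrane receptors, had 9.75 to 10.7 FPKM in control DMSO, 6.50 to 6.76 in ΔUNG ATRi and 5.16 in ΔUNG_2 ATRi.

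Of 6 tested feedback inhibitors, 2 were lower in each clone under DMSO, Isg15 and Usp18, where 3.25% (ΔUNG) and 3.73% (ΔUNG_2) of all genes were lower. Isg15, a ubiquitin-like modifier, fell by 2.06 ± 0.24 (SE) in ΔUNG and fell by 2.19 ± 0.24 in ΔUNG_2. Usp18, the protease that removes Isg15 and holds down the receptor, fell by 1.98 ± 0.13 in ΔUNG and fell by 2.24 ± 0.13 in ΔUNG_2. Both rose with ATRi in the control, by 2.07 ± 0.24 and 1.62 ± 0.13 on the log2 scale.

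Of 7 adaptors and kinases of RNA and DNA sensing, limma and limma-voom called 0 in either clone under DMSO. There limma called 987 of all 11323 genes in ΔUNG and 928 in ΔUNG_2, in either direction. Of the 7, 0 in ΔUNG and 1 in ΔUNG_2 had an unadjusted p under 0.05. Among the 7 were Mavs, the adaptor of RIG-I (-0.01 and 0.14), and Tbk1, its kinase (-0.04 and 0.00). With ATRi in the control 3 of the 7 rose, where 16.8% of all genes rose. Ticam1, the adaptor of Toll-like receptor 3, rose by 0.86 and Tmem173, the gene of the DNA-sensing adaptor STING, by 0.57.

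The last lists were cap genes and subunits of eIF3. Under DMSO, limma called 987 of all 11323 genes in ΔUNG and 928 in ΔUNG_2, in either direction. Of 3 tested cap methylation and capping genes, limma and limma-voom called 0 in either clone under DMSO, where 1 in each had an unadjusted p under 0.05. With ATRi in the control 1 fell, where 16.8% of all genes fell. It was Rngtt, which adds the cap guanosine (-0.30, limma adjusted p = 0.0380). Of 12 tested eIF3 subunit genes, both methods called 0 in either clone under DMSO, 0 had an unadjusted p under 0.05, and with ATRi in the control 2 rose and 2 fell, where 33.6% of all genes were called in either direction. Eif3c fell most, by 0.63 ± 0.07 on the log2 scale (SE), from a level above that of the Ifit genes, a mean of 229.7 FPKM over all libraries.

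The genes most like each member in pattern were ranked by Pearson's r of log2(FPKM + 0.5) over the 11 libraries, which share the 6 groups, as a description. For Ifit1 they were Tdrd7 (r = 0.995), Helz2 (0.990), Ifi35 (0.990), Gbp3 (0.988) and Ifih1 (0.988). For Ifit3 they were Irgm1 (r = 0.992), Ifi35 (0.990), Tdrd7 (0.985), Helz2 (0.985) and Stat2 (0.984). For Ifit3b they were Tapbp (r = 0.985), Rab11fip5 (0.983), Shisa5 (0.982), Irgm1 (0.982) and Ifi35 (0.977). Ifi35 stood in all 3 of these rankings. For Ifit2 they included Zswim5 (r = 0.899), Gstk1 (0.883), Suclg2 (0.882) and Eif4e (0.869), none of which was in the other rankings. Among members, r was 0.979 to 0.993 between Ifit1, Ifit3 and Ifit3b and 0.495 to 0.537 between Ifit2 and each of them.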

How the data were processed

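RNA of 11 libraries was measured as FPKM, as deposited by the authors. HISAT2 was used, per the submitters' processing notes, and for its version, the counting tool and the annotation nothing is given in the sources used here. A deposited read table gives each library's read number and percent of bases at Q30; its row for 1 other library was not used. FPKM times gene length gave whole fragments (within 0.01) for 100% of values, so a listed 0 stands for 0 counted fragments. By sampling, an expected level of up to about 3 fragments can still give a count of 0. Groups came from the sample titles.

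Limma 3.58.1 in R 4.3.3 was fitted to log2(FPKM + 0.5) of the 11323 genes that averaged 0.5 FPKM or more, with 1 mean per group, an intensity trend and two-sided tests. Adjustment was by Benjamini-Hochberg over all genes tested, with a threshold of 0.05. Differences on this scale understate those of low genes. The fit was also run on simulated counts that had the same dispersion in every gene and group. The real replicate pairs differed in spread, so that run does not gauge the error rate in these data. The titles call the replicates biological; whether they were separate cultures is not given in the sources used here, so p-values measure the spread between libraries. The members and lists were chosen with earlier results of these data known. Named were the members, up to 5 genes per list, the genes nearest to each member in pattern and the cluster's neighbours, with some genes of these lists and rankings not reported here; Herc6, Mx2, Cd68, Cdh1 and Pecam1 were named after their values were seen. Promoters are from RefSeq (GRCm38.p6; all 4 members matched) and transcripts from GENCODE M21. Alternatives were pseudocounts, filters, rescaling, no trend, fewer groups, a replicate block, limma-voom, a summed Ifit3 and Ifit3b, and leaving out each library. Replicate numbers did not pair libraries (correlations of -0.124 to 0.0436 over 10 pairs, 0 above 0.1). Figures were drawn with matplotlib 3.10.9.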

Additional observations from a re-analysis of the deposited data

Results flagged for a closer look

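The log2 change of Ifit2 with ATRi was 0.22 in the Cas9 control and -0.21 in ΔUNG, a difference of -0.42. Both control ATRi libraries (21.5 and 21.1 FPKM) lay above both control DMSO libraries (17.1 and 19.4), and both ΔUNG ATRi libraries (15.4 and 16.1) lay below both ΔUNG DMSO libraries (17.0 and 19.6). The difference did not pass the limma test (adjusted p = 0.222). In ΔUNG_2 the change was -0.19, with the single ATRi library (13.8 FPKM) below both DMSO libraries (15.5 and 16.2), a difference from the control of -0.41 that did not pass either (limma adjusted p = 0.289).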

How the results depend on the processing

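The calls of Ifit1, Ifit3 and Ifit3b in the 7 comparisons of clone with control or ATRi with DMSO held under each alternative run, and 0 called differences of a member reversed. The number of members called in the difference of ATRi response of ΔUNG was 0 and became 1 with a pseudocount of 1 (Ifit3b, -1.13, limma adjusted p = 0.0390), with the replicate block (Ifit3, -1.05, limma adjusted p = 0.0378) and with limma-voom. In ΔUNG ATRi against control DMSO 1 member was called, then 0 when libraries were rescaled to 1 FPKM sum, 2 after that rescaling over genes of at least 200 bases, 2 with the replicate block and 2 with limma-voom. In ΔUNG_2 ATRi against control DMSO 2 were called, then 1 when rescaled to 1 FPKM sum, with limma-voom, with Ifit3 and Ifit3b summed and with only the groups compared; leaving out 1 library gave 1 to 2. The replicate block changed no other count of members called by over 1.5 times. The number of member pairs whose ratio changed with ATRi was 3, became 5 with a pseudocount of 0.1, and ran from 0 to 5 on leaving out 1 library (0 without any 1 ΔUNG_2 library, 5 without the first ΔUNG ATRi library). The Ifit2 calls under ATRi were also lost when rescaled to 1 FPKM sum (-0.52 and -0.71, limma adjusted p = 0.103 and 0.0806) and with only the groups compared (limma adjusted p = 0.0536 and 0.0879). The cause of these changes was not tested, except that fewer libraries leave fewer arrangements. That rescaling moved the median of all genes by -0.11 in ΔUNG and -0.13 in ΔUNG_2 under DMSO. It also left fewer genes called, 327 in place of 987 in ΔUNG and 381 in place of 928 in ΔUNG_2. The 2 comparisons with control DMSO were added after seeing the data. Depth limits Ifit1bl2 most, with 3 to 38 fragments per library, and Ifit3b in untreated clones, with 25 to 42.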
